A study of Mus musculus with 2 samples.

Results

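Small leucine-rich proteoglycans (SLRPs) were examined in the growth plate cartilage of *Tric-b*-knockout mouse embryos. The 10 genes were taken by name as *Bgn*, *Dcn*, *Aspn*, *Fmod*, *Lum*, *Prelp*, *Omd*, *Epyc*, *Ogn* and *Chad*. They were 10 of 18193 genes named on the array, and all 21 probe sets annotated to one of them alone were kept. Both samples were femoral cartilage of embryos at E17.5 on a C57BL/6J and 129Sv background, and both were labelled as *Tric-b* knockouts (*Tric-b* is also called *Tmem38b*). The round section, the first sample, was rich in round chondrocytes, while the second sample held columnar and hypertrophic chondrocytes and is called the columnar section here. By the description of the design, RNA preparations from 3 cartilage portions were mixed for each sample, and each sample was hybridised to 1 array. No difference below therefore has a replicate check, a test or an error, and a difference between arrays cannot be told apart from one between zones. The study's methods describe the round specimen only, and no wild-type array was analysed here. Of the 4 *Tmem38b* probe sets, 3 lay above the detection floor in both arrays, with signals of 266, 188 and 323 in the round section and 275, 184 and 304 in the columnar section, and the other had 69.4 and 43.1. The position of the deletion within these transcripts was not analysed here, so the signals do not check the genotype.

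SLRPs are secreted proteins built of leucine-rich repeats that fold into a curved solenoid and bind collagen. They steer the assembly, spacing and diameter of collagen fibrils, and several also bind growth factors such as TGF-β. Class I and class II members carry chondroitin or dermatan sulfate chains and keratan sulfate chains, respectively, although some members are secreted with few or no chains. In the growth plate, round chondrocytes at the epiphyseal end give rise to flat columnar cells, which then become hypertrophic. Several SLRPs are also abundant in the tendon, perichondrium and other fibrous tissue that borders cartilage.

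Both samples carried the chondrocyte markers that fit their labels. All 9 chondrocyte markers were detected in both arrays and 0 differed by 2-fold, with a median log2 difference of 0.03, columnar minus round. All 6 measured columnar and prehypertrophic markers were past 2-fold towards the columnar section. Of 7 round or resting markers, 6 were at least 2-fold higher in the round section. Of 4 hypertrophic markers compared, 3 were past 2-fold towards the columnar section, as were 2 of 5 osteoblast markers, with 1 of these 5 past 2-fold the other way. *Sp7*, 1 of the 2, is also counted among the columnar and prehypertrophic markers. *Col1a1*, the 1 that went the other way, is also on the next list. The list for tendon, perichondrium and fibroblasts leaned to the round section, with 9 of 12 genes past 2-fold. The summed signal of the list was 74145 in the round section and 21790 in the columnar section, most of it from *Col1a2* (32412 and 14443) and *Col3a1* (30420 and 5232). The tendon factor *Scx* had signals of 79.2 and 6.03. The second of these is under the detection floor, so the difference is a bound of at least 1.20-fold. The tendon membrane protein gene *Tnmd* had 214 and 78.0 and *Mkx* of the same list 393 and 279. The fibroblast surface marker *Thy1* was not detected in either section. The endothelial, erythroid and myeloid lists held 0 genes past 2-fold. Skeletal muscle markers summed to 325 and 1082, with 2 of 5 past 2-fold.

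Signals are in arbitrary units on a linear scale. A signal of 65.9 or less, the 40th percentile of all signals, was treated as not detected and called the floor. Probe sets differ in how brightly they report RNA, so levels of different probe sets were not compared, and a difference is always between the sections for 1 probe set. Where a gene had several, the brightest on average (log2 scale, floor applied) gave its value. A size rule of 2-fold was used to count genes.

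SLRP genes divided into 3 that were higher in the round section, 1 that was higher in the columnar section, 5 that differed by less than 2-fold and 1, *Aspn*, for which only a bound under 2-fold was obtained. The 3 were *Ogn*, *Dcn* and *Bgn*, and the gene higher in the columnar section was *Prelp*. Among all 12761 compared genes, 6.25% passed 2-fold towards the round section and 4.28% passed it towards the columnar section. Of the genes past the size rule, 40.6% were higher in the columnar section as deposited, and 52.8% after lowess centring of the arrays. The median log2 difference was -0.66 over the 10 SLRP genes and -0.04 over all compared genes. All 10 were compared, and 9 were detected in both arrays. Of their 21 probe sets, 8 passed 2-fold towards the round section and 2 towards the columnar section. These are repeat readings of *Ogn*, *Dcn*, *Bgn* and *Prelp*, and 1 of *Fmod*. They add no further genes, and the share over all probe sets was not computed. The marker list of tendon, perichondrium and fibroblasts, whose summed signal is given above, leaned to the same side as *Ogn*, *Dcn* and *Bgn*. So did the round or resting chondrocyte markers, with 6 of 7 past 2-fold. The part of either list in the differences of these 3 genes was not tested. Fewer cells of a type and less RNA per cell cannot be told apart in such samples.

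**Figure D1:**
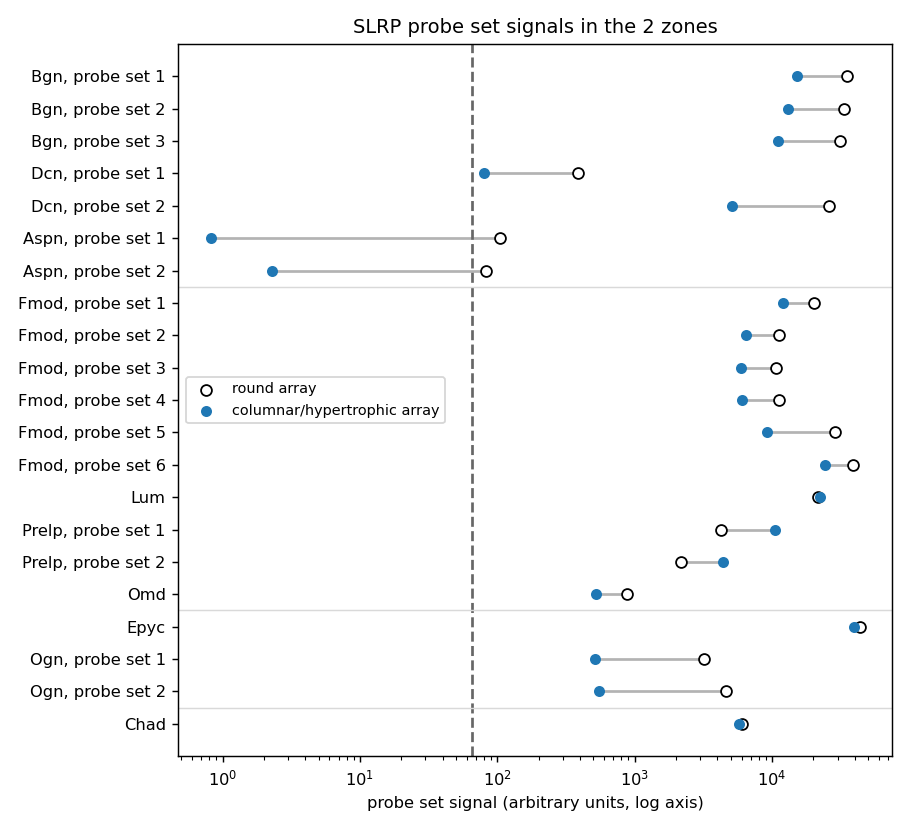
Signals of all 21 SLRP probe sets (log axis, arbitrary units) in the round section (open symbols) and the columnar section (blue symbols), 1 array per zone, with the floor of 65.9 as a dashed line and grey lines between SLRP classes. *Ogn*, *Dcn* and *Bgn* lie to the right in the round section, *Prelp* lies to the right in the columnar section, and *Lum*, *Epyc* and *Chad* nearly coincide.

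Class I SLRPs were each higher in the round section. *Dcn* encodes decorin, which coats collagen fibrils and limits their lateral fusion. Its brighter probe set had a signal of 25968 in the round section and 5083 in the columnar section, a 5.11-fold difference. Its dimmer probe set had signals of 387 and 80.5, a 4.81-fold difference, although the lower of these is close to the floor. Both *Dcn* probe sets thus gave nearly the same ratio, at log2 differences of -2.35 and -2.26.

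*Bgn* encodes biglycan, the closest relative of decorin, which is found around chondrocytes and in bone matrix. Its 3 probe sets had signals of 35323, 33610 and 31272 in the round section. The same probe sets had signals of 15281, 12987 and 11089 in the columnar section. Every *Bgn* probe set was at least 2-fold higher in the round section, from 2.31-fold to 2.82-fold. These are bright signals on a scale that reached 68899, and compression of ratios at that brightness was not tested. The log2 difference of *Dcn* was below that of *Bgn* by 1.14, a gap that does not depend on a constant scaling of either array.

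*Aspn* encodes asporin, which binds collagen and TGF-β and whose amino terminus bears a run of aspartate residues. Its 2 probe sets had signals of 104 and 82.8 in the round section, little above the floor. Both lay under the floor in the columnar section, with signals of 0.823 and 2.29. The difference is therefore a bound, at least 1.58-fold for the first probe set and at least 1.26-fold for the second. *Aspn* was the only one of the 10 SLRP genes not detected in both arrays. Its bound depended on the floor, with a log2 difference of -2.20 when the floor was set at the 20th percentile.

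Class II SLRPs differed among themselves in direction. *Prelp* encodes the proline/arginine-rich protein PRELP, which binds collagen and heparan sulfate. Its first probe set had signals of 4246 in the round section and 10522 in the columnar section. Its second probe set had signals of 2173 and 4362. *Prelp* was thus 2.48-fold and 2.01-fold higher in the columnar section, opposite to *Dcn*, *Bgn* and *Ogn*. The first probe set, which gave the value of the gene, may by its identifier have shared or similar targets. The second value, from a probe set of single target design, lies just past the size rule.

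*Fmod* encodes fibromodulin, a keratan sulfate proteoglycan with sulfated tyrosines that binds fibrillar collagen. Its brightest probe set had signals of 38530 in the round section and 24249 in the columnar section, a 1.59-fold difference. All 6 probe sets were higher in the round section, with log2 differences from -1.63 to -0.67. The 5 probe sets other than the extreme one lay between 1.59-fold and 1.84-fold, and the remaining one, with signals of 28585 and 9225, reached 3.10-fold. That probe set and 4 of the others have identifiers ending in _x_at, which marks probes that may match other transcripts. The probe set without this mark gave 1.66-fold, with signals of 20045 and 12048.

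*Lum* encodes lumican, a keratan sulfate proteoglycan best known from the cornea and abundant in many connective tissues. Its 1 probe set had signals of 21458 in the round section and 22176 in the columnar section. The log2 difference was 0.05, and it ranged from -0.13 to 0.14 over the other settings tried, so its sign depended on the scaling. *Omd* encodes osteomodulin, a keratan sulfate proteoglycan of bone matrix. Its 1 probe set had signals of 875 and 526, a 1.66-fold difference towards the round section.

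Class III held the largest difference among the 9 SLRP genes detected in both sections beside one of the smallest. *Ogn* encodes osteoglycin, also called mimecan, which takes part in collagen fibril formation. Its 2 probe sets had signals of 4647 and 3175 in the round section and of 553 and 512 in the columnar section. *Ogn* was thus 8.40-fold and 6.20-fold higher in the round section, and it was detected in both zones. *Epyc* encodes epiphycan, a dermatan sulfate proteoglycan named for epiphyseal cartilage. Its 1 probe set had signals of 43644 in the round section and 39271 in the columnar section, a log2 difference of -0.15. Both signals lie in the bright range of the scale, where compression was not tested.

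Class IV was represented by *Chad*, encoding chondroadherin, a cartilage protein that binds collagen and the integrin α2β1. Its 1 probe set read 6059 in the round section and 5775 in the columnar section. The log2 difference was -0.07, and it ranged from -0.21 to 0.02 over the settings. Its signals were far from both the floor and the top of the scale.

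**Figure D2:**
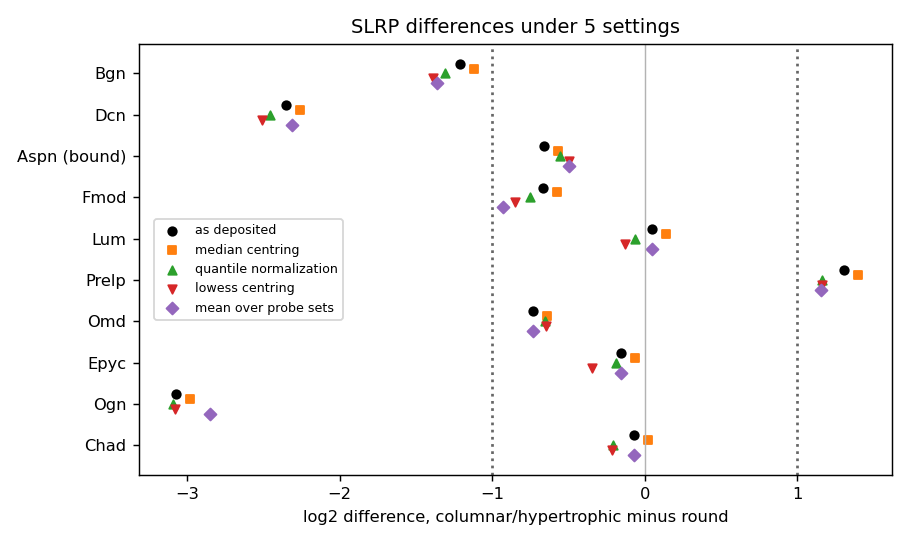
Log2 difference (columnar minus round) of each SLRP gene as deposited and under 3 other scalings of the arrays and the mean over probe sets. Dotted lines mark 2-fold. *Ogn*, *Dcn* and *Bgn* lie beyond 2-fold to the left and *Prelp* beyond 2-fold to the right under all 5, while *Lum* and *Chad* lie on both sides of 0.

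The order of the differences, from the round side to the columnar side, was *Ogn* (-3.07), *Dcn* (-2.35), *Bgn* (-1.21), *Omd* (-0.73), *Fmod* (-0.67), *Aspn* (-0.66, a bound), *Epyc* (-0.15), *Chad* (-0.07), *Lum* (0.05) and *Prelp* (1.31). The only spread in these data is that between probe sets of a gene, which came to 0.34 on the log2 scale (pooled SD, 5446 genes). It holds no variation between embryos or preparations. *Omd* and *Fmod* lay closer together than this SD, as did *Epyc*, *Chad* and *Lum*. The steps from *Ogn* to *Dcn*, from *Dcn* to *Bgn* and from *Bgn* to *Omd* were each wider than it. So were those from *Fmod* to *Epyc* and from *Lum* to *Prelp*. *Aspn* was left out of these steps as a bound. The SD describes single probe sets of a gene and is not the spread of a gap between genes.

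**Figure D3:**
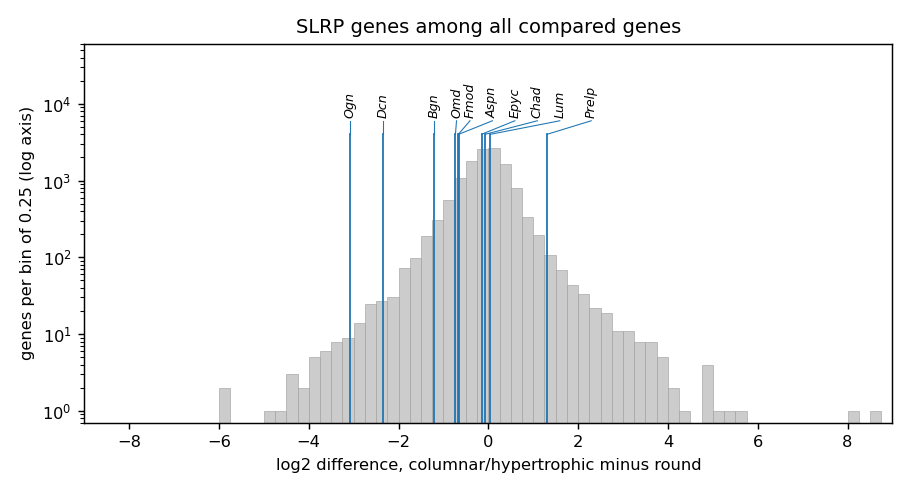
Distribution of the log2 difference (columnar minus round) over all 12761 compared genes in bins of 0.25 (grey, log axis), with the SLRP genes as blue lines. *Ogn* at -3.07 and *Dcn* at -2.35 lie in the sparse left flank, and *Epyc*, *Chad* and *Lum* lie at the centre.

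Most SLRP genes are neighbours of one another on the mouse reference (GRCm38.p6), and neighbours differed in size and in direction. *Prelp* and *Fmod* have no other protein-coding gene between them on chromosome 1. The lowest *Prelp* probe set and the highest *Fmod* probe set were 1.67 apart in log2 difference, on opposite sides of 0. On chromosome 10, *Dcn* and *Lum* are adjacent, followed by *Kera* and *Epyc*. There the log2 difference was -2.35 for *Dcn* but 0.05 for *Lum* and -0.15 for *Epyc*. On chromosome 13, *Ecm2*, *Aspn*, *Omd* and *Ogn* follow each other without another protein-coding gene. All 4 were on the round side, but *Ogn* at -3.07 differed far more than *Omd* at -0.73, and *Aspn* and *Ecm2* gave bounds of -0.66 and -0.70. *Bgn* lies on chromosome X and *Chad* on chromosome 11.

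**Figure D4:**
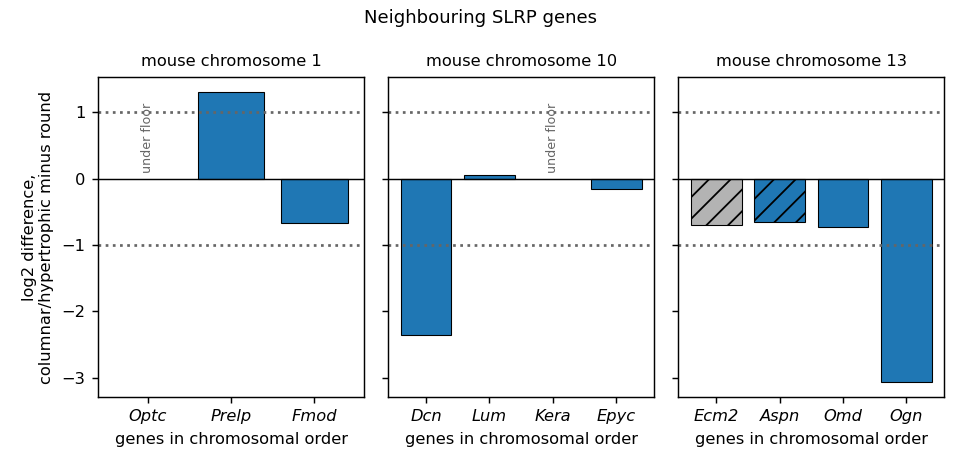
Log2 difference (columnar minus round) of SLRP genes in chromosomal order on mouse chromosomes 1, 10 and 13. Blue bars are the SLRP genes studied, the grey bar is *Ecm2*, hatched bars are bounds set by the floor, and dotted lines mark 2-fold. *Prelp* and *Fmod* point in opposite directions. *Dcn* stands out from *Lum* and *Epyc*, and *Ogn* from *Omd*. The true differences of *Aspn* and *Ecm2* may be larger than their bars, so *Ogn* cannot be ranked against them.

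The stretches upstream of 2 pairs of these neighbours are shown, because the pairs lie together and yet differ in direction (*Prelp* and *Fmod*) or in size (*Omd* and *Ogn*). Each is the 250 bases before a RefSeq transcription start on GRCm38.p6, written 5′ to 3′ on the strand of the gene. Capitals mark matches, on either strand, to 4 short motifs: TATAAA (a core promoter element), ACAAAG (core of SOX factor sites), TGTGGT (core of RUNX factor sites) and CATCTG (an E box).
Prelp, chr1:133921402-133921651, minus strand: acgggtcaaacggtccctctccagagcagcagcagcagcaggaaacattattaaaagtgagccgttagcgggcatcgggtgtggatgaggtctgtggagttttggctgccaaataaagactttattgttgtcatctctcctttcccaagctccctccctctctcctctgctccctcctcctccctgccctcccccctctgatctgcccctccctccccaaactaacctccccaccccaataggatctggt
Fmod, chr1:134037004-134037253, plus strand: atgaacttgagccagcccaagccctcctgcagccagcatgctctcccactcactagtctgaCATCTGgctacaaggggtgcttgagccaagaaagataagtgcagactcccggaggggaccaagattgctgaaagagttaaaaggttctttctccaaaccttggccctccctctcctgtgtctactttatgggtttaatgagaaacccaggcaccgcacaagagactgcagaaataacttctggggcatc
Omd, chr13:49582212-49582461, plus strand: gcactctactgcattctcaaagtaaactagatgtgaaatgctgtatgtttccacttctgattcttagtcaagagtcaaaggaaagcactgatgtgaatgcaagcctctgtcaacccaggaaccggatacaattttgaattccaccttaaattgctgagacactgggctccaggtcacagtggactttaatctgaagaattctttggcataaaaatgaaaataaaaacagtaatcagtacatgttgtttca
Ogn, chr13:49607765-49608014, plus strand: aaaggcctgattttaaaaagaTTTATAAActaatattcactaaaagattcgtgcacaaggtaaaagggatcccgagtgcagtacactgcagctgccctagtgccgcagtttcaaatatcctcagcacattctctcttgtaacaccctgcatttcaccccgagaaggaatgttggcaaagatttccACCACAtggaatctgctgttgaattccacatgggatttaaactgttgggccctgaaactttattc

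The 4 stretches differ in composition, with a GC content of 55.6% for *Prelp*, 51.2% for *Fmod*, 38.4% for *Omd* and 42% for *Ogn*. The *Prelp* and *Omd* stretches held none of the 4 motifs. The *Fmod* stretch held CATCTG with its first base 189 bases before the start. The *Ogn* stretch held TATAAA on both strands, overlapping, at 229 and 227 bases before the start, and the RUNX core as its reverse complement ACCACA at 65 bases. The reference table held 9 such stretches for 8 of the 10 SLRP genes, *Lum* and *Dcn* not among them. Of these 9 stretches, TATAAA was matched in 3 (*Aspn*, *Ogn* and *Chad*), against 12.4% of all 32851 stretches. The matches in *Aspn* began 207 and 178 bases before the start, and that in *Chad* 28 bases before it. The SOX core was matched in 1 stretch (*Epyc*), the RUNX core in 1 (*Ogn*) and CATCTG in 1 (*Fmod*). Their shares of all stretches were 16.5%, 14.0% and 14.4%, respectively. A match is a description of letters, and binding was not measured.

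Further SLRP genes, outside the 10, were compared in the same way. Of 6 measured, 4 were compared and 0 passed 2-fold in either direction, although *Ecm2* has only a bound and 1 gene passed on the round side with the floor at the 20th percentile. *Chadl*, a chondroadherin-like gene of cartilage, read 4945 (round) and 5102 (columnar). *Podn*, encoding podocan, had signals of 264 and 276. *Ecm2* had signals of 107 and 7.42 on one probe set, a bound of -0.70, and was under the floor in both arrays on the other. *Nyx*, encoding nyctalopin of the retina, lay at the floor with 60.1 and 71.3. *Kera* and *Optc*, genes of the cornea and the eye, were not detected in either array.

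Genes that build the sugar chains were compared next, since class I and class II SLRPs are substrates of these enzymes. Of 19 compared genes for the linkage region and for chondroitin and dermatan sulfate, 3 passed 2-fold towards the columnar section and 0 towards the round section. Over all compared genes the shares were 4.28% and 6.25%, respectively, and no list was tested against these shares. The 3 genes were the sulfotransferase genes *Chst15* (signals of 296 and 961) and *Chst12* (443 and 935) and the chain polymerase gene *Chsy3* (243 and 717). *Csgalnact2*, which starts chondroitin chains, had signals of 1422 and 840. The median log2 difference of this list was 0.20. *Dse* and *Dsel*, the epimerase genes that turn chondroitin into dermatan sulfate, had log2 differences of 0.20 and -0.17.

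Of 10 genes for keratan sulfate and tyrosine sulfation, 1 passed 2-fold in each direction, and the median was -0.35. With the mean over probe sets 0 passed in either direction. Over all compared genes the shares were 6.25% (round) and 4.28% (columnar) with the brightest probe set. *Fut8*, which adds core fucose to N-linked glycans, had signals of 1354 and 602. *B3gnt2*, which extends lactosamine chains, had signals of 273 and 596. *Chst2* had signals of 215 and 109. *Tpst1*, a tyrosine sulfotransferase of the kind that modifies fibromodulin, had signals of 2915 and 1834, 1.59-fold higher in the round section.

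Collagen genes, whose products SLRPs bind, were compared next. Of 16 genes, 8 passed 2-fold towards the round section and 0 towards the columnar section, with a median of -0.96. Over all compared genes, 6.25% and 4.28% passed, respectively. The largest differences were for *Col14a1* (signals of 2495 and 104), *Col3a1* (30420 and 5232), *Col1a1* (1583 and 342) and *Col5a1* (6293 and 1807). When the list was divided by type, after its values had been seen, the 6 genes of types II, IX and XI had log2 differences from -0.02 to 0.23. These genes were bright in both sections, *Col9a1* at 68899 being the highest signal on the array, and compression there was not tested. The other 10, of types I, III, V, VI, XII and XIV, ranged from -4.58 to 0.61 and included all 8. Of these collagen genes, *Col1a1*, *Col1a2*, *Col3a1* and *Col14a1* are also on the marker list of tendon, perichondrium and fibroblasts.

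Genes of growth factors and receptors that SLRPs bind gave differences in both directions. Of 17 compared, 2 were at least 2-fold higher in the round section and 3 in the columnar section, with a median of -0.20. The shares over all compared genes were 6.25% and 4.28%, respectively. Of the list, 1 gene passed on the round side with lowess centring and 0 with the 60th percentile floor. The TGF-β genes *Tgfb1* (signals of 80.3 and 270) and *Tgfb2* (345 and 1161) were higher in the columnar section. The lower *Tgfb1* signal is close to the floor. *Tgfb3* differed the other way, with signals of 893 and 500.3, which is under 2-fold. *Bmp4* was higher in the round section, with signals of 287 and 110. *Tlr4*, the other gene past 2-fold on that side, had signals of 154 and 60.4, a bound of at least 2.33-fold. *Itga1*, encoding a collagen-binding integrin subunit, had signals of 243 and 1187. *Itga2*, the α2 integrin subunit that binds chondroadherin, was under the floor in both arrays at 62.4 and 43.1.

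Among all compared genes, 6.25% passed 2-fold on the round side and 4.28% on the columnar side. Of 7 protease and processing genes compared, 1 was at least 2-fold higher in the round section and 0 in the columnar section. That gene passed neither with median centring, with the 60th percentile floor nor with the mean over probe sets, and 3 genes passed without a floor. It was *Adamts5*, an aggrecanase gene, whose signals of 135 and 60.7 give a bound of at least 2.05-fold. *Bmp1*, which removes the propeptide of biglycan, had signals of 605 and 400. *Pcolce*, encoding an enhancer of procollagen processing, had signals of 19084 and 12516. *Mmp2* and *Mmp14*, genes of matrix metalloproteinases, had log2 differences of -0.94 and -0.86. The median of the list was -0.61.

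**Figure D5:**
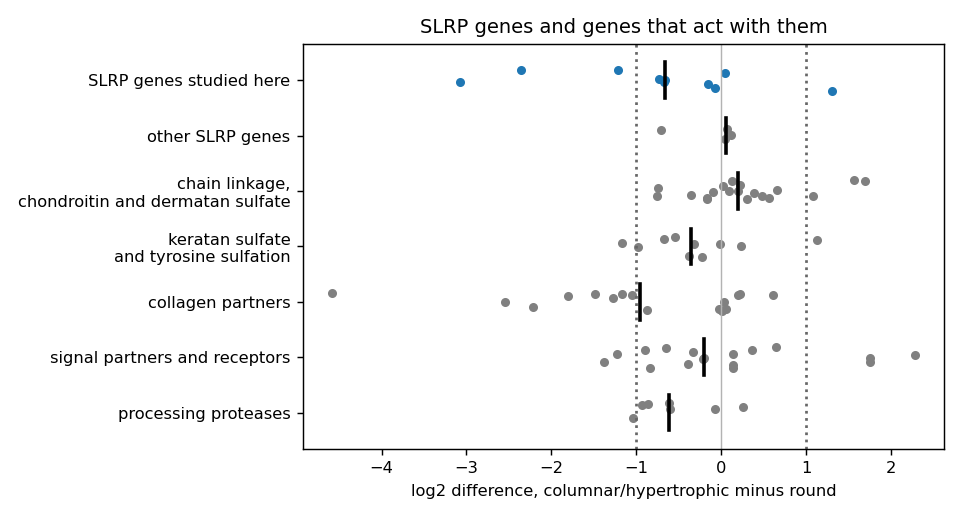
Log2 difference (columnar minus round) of the SLRP genes and of the compared genes of 6 lists chosen by function, 1 point per gene with vertical scatter for legibility only. Black bars are medians and dotted lines mark 2-fold. The SLRP and collagen medians of -0.66 and -0.96 lie on the round side, and that of the chain linkage list, 0.20, lies on the other.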

How the data were processed

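RNA of the 2 cartilage sections was hybridised to Affymetrix mouse expression arrays. The authors deposited 1 linear intensity per probe set and section. MAS5 is listed, without a version, in the processing notes of the submitters, while the methods name robust multiarray analysis for heatmaps. The deposited values reach 68899, which shows a linear scale, and the trimmed means of the sections were 497 and 496. They were used without further scaling. Of 45037 probe sets, 34945 were annotated to 1 gene, and checking Entrez identifiers against RefSeq changed 0 symbols. Detection calls were not used here.

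Signals under the floor of 65.9 were set to it, and a probe set under it in both arrays was not compared. The brightest probe set on average, with the floor in place, stood for its gene. With 1 array per zone no test was made. The number of arrays limits the precision. Named were all 10 SLRP genes, every measured gene of the list of other SLRPs, and of each other list up to 4 genes that differed most while detected in both sections. *Dse*, *Dsel*, *Itga2*, *Tgfb3*, *Tlr4*, *Col9a1*, *Adamts5* and the marker genes were named after their values were seen. The genes and lists were chosen with earlier results of these data known. Of all listed genes, 10 were not analysed here, *Tsku* and *Podnl1* among them.

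Alternatives were 3 other scalings (median centring, quantile normalization, lowess centring), a lower floor (20th percentile), a higher one (60th), none, averaging of a gene's probe sets, restriction to specific probe sets and a 3-fold rule. The steps were checked on simulated data. Scripts ran in Python 3.11.15 with pandas 2.3.3 and numpy 2.4.6, lowess came from statsmodels 0.14.6, and plots from matplotlib 3.10.9.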

Additional observations from a re-analysis of the deposited data

How the results depend on the processing

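No paired analysis was possible because only 1 array was made per section, and nothing was tested. *Ogn*, *Dcn* and *Bgn* stayed past 2-fold towards the round section and *Prelp* towards the columnar section under every scaling, floor and probe set choice tried. Each choice was varied on its own, and combinations were not tried. With the floor at the 20th percentile or without a floor *Aspn* was a 4th gene on the round side, at -2.20 (a bound) and -5.17. The -5.17 came from the second *Aspn* probe set, with signals of 82.8 and 2.29. The shares of all compared genes past 2-fold on the round side were then 9.32% and 13.9%, respectively. *Aspn* had no value with the 60th percentile floor, and *Epyc* none with specific probe sets only. A 3-fold rule left 2 SLRP genes on the round side and 0 on the other, against 2.12% and 1.68% of all compared genes. The median of the SLRP genes ranged from -0.73 (specific probe sets only) to -0.57 (median centring and lowess centring).

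The tolerance for differences was the pooled SD of 0.34, and that for counts 1.5 times. Beyond it 21 counts moved, among them that of SLRP genes on the columnar side with the 3-fold rule. No list median moved. The only gene differences that moved were the 2 of *Aspn* given above. Processing genes on the round side numbered 0 with median centring, the 60th percentile floor, the mean over probe sets and the 3-fold rule, 2 with the 20th percentile floor and 3 without a floor, and 1 was on the other side with the 20th percentile floor and without a floor. Signal genes on the round side numbered 1 with lowess centring and 0 with the 60th percentile floor and the 3-fold rule. Keratan sulfate genes numbered 0 in both directions with the mean over probe sets and the 3-fold rule, and 0 on the columnar side with specific probe sets only. Other SLRP genes numbered 1 on the round side with the 20th percentile floor and 1 on the columnar side without a floor. The 3-fold rule left 1 chain linkage gene and 4 collagen genes. Over all genes, 798 were past 2-fold on the round side and 546 on the columnar side, against 1519 and 1053 with the 20th percentile floor, 2524 and 1940 without a floor, 407 and 347 with the 60th percentile floor, and 271 and 214 past 3-fold. Compared genes numbered 12761 with the main floor, 16304 with the 20th percentile floor, 18193 without a floor and 9704 with the 60th percentile floor. Fewer or more genes follow from the construction of the 3-fold rule and the floors. Elsewhere the cause was not tested.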
